A study of Homo sapiens with 12 samples.

Results

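The axon guidance ligands and receptors are 63 of the 13310 genes in the deposited table, chosen by name alone. They are the genes whose symbols begin with SEMA, PLXN, EFNA, EFNB, EPHA, EPHB, SLIT, ROBO or UNC5, with NRP1, NRP2, DCC, NTN1 and NTN4, and without the SLITRK genes. The naming rule also takes in 3 genes that encode no guidance ligand or receptor, UNC50, UNC5CL and the antisense RNA EPHA1-AS1, and these are described apart. Of the other 60, 19 are semaphorins, 11 plexins and neuropilins, 8 ephrins, 10 EPH receptors, 5 slits and ROBO receptors, and 7 netrins with their receptors DCC and UNC5.

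Polyadenylated RNA was sequenced from cells of the human embryonic line H9, wild type in every sample, in 4 groups of 3 replicates. FT671_NEUR cells were differentiated in the presence of FT671, an inhibitor of the deubiquitinating enzyme USP7, and DMSO_NEUR cells in its solvent. NEUR cells were differentiated with no addition and UNDIF cells were left undifferentiated. Differentiation used inhibitors of both SMAD branches, and then a medium for neural stem cells that held the growth factors EGF and bFGF. The dose and duration of FT671 are not given in the labels used here. The deposited sheet is titled for a USP7 heterozygote, but the genotype field of these samples is wild type and was followed. The treatment field calls the DMSO_NEUR samples undifferentiated while their titles call them neural, and the titles were followed. The labels do not say that replicates came from different cultures, and p-values then rest on variation between libraries of 1 cell line that may be technical.

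Depth was even, at 15906471 to 17271155 reads per library over all genes listed. NEUR replicate 3 stood apart from NEUR replicates 1 and 2. It was lower than both of them at 34 of the 63 guidance genes and higher than both at 18, against 42.1% and 42.3% over all genes, and its deviation followed transcript length across the 13110 genes with a known length (Spearman rho -0.56, which is across genes and not replicates). The median longest transcript was 5335 bases for the guidance genes and 3698 for all genes, and results that rest on this library are given without it. The labels call every sample an embryonic stem cell. POU5F1, which defines pluripotent cells, had 0.978 ± 0.978 normalized counts in NEUR, against 2459 ± 172 in UNDIF. PAX6, which defines neural progenitors, had 13.0 ± 4.42 in FT671_NEUR, against 3985 ± 249.9 in DMSO_NEUR, and the epithelial cadherin gene CDH1 had 14810 ± 704 in FT671_NEUR, against 918 ± 90.1 in DMSO_NEUR.

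Axon guidance molecules are secreted or membrane-bound cues and the receptors that read them, and they steer growth cones and migrating cells by attraction or repulsion. Secreted class 3 semaphorins act through neuropilins, which bind the ligand, and plexins, which signal. Ephrins are held at the cell surface and bind EPH receptor tyrosine kinases on neighbouring cells, with signals in both directions. Slits repel through ROBO receptors, and netrins attract through DCC and repel through UNC5 receptors. The same molecules pattern the neural tube, blood vessels and epithelia, so their transcripts are not specific to neurons.

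The promoters of 4 members are shown because these genes carry the contrast described below: DCC and EFNB2 were higher in NEUR than in UNDIF and lower in FT671_NEUR than in DMSO_NEUR, while EPHA1 and its ligand EFNA1 were higher in FT671_NEUR than in DMSO_NEUR. Each is the 250 bases before the RefSeq transcription start on GRCh38.p14, which is not the build of the deposited alignment, and each is written 5′ to 3′ on the gene's strand. Capitals mark matches, on either strand, to the core motifs GCCNNNGGC (bound by TFAP2 factors) and CACCTG (bound by ZEB factors). AACCNGTT, the motif of GRHL factors, was searched as well and has no match in these 4. The 3 motifs were chosen with the expression results known, and they do not overlap each other in these 4 promoters.
DCC (chr18:52339947-52340196, plus strand): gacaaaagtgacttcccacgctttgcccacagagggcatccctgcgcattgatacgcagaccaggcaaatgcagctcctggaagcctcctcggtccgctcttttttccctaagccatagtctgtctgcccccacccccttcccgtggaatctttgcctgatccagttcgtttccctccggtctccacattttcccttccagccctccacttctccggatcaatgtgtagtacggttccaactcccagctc
EFNB2 (chr13:106535663-106535912, minus strand): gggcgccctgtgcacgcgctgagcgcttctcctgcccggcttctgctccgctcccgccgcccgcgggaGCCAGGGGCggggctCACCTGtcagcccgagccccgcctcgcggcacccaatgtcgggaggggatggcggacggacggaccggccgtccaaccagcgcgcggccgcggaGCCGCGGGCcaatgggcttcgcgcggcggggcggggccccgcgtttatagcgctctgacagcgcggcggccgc
EPHA1 (chr7:143408857-143409106, minus strand): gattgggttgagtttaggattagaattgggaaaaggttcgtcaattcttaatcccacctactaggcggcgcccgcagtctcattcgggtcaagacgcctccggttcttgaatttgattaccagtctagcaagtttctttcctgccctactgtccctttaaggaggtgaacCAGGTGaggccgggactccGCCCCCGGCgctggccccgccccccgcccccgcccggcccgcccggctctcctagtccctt
EFNA1 (chr1:155127626-155127875, plus strand): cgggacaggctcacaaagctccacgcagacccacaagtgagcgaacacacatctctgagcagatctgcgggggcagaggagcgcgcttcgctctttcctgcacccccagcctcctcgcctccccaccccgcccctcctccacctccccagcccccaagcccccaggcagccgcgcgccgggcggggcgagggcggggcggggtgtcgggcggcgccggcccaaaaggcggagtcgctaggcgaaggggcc
EFNB2 holds 2 matches to GCCNNNGGC and 1 to CACCTG, EPHA1 holds 1 of each, and DCC and EFNA1 hold 0. The EFNB2 promoter holds 40 CpG dinucleotides, EFNA1 24, EPHA1 17 and DCC 10. RefSeq promoters were matched for 55 of the 63 members, in 85 windows, with a median of 17 CpG dinucleotides against 11 over all 35116 windows of the same length. GCCNNNGGC was found in 35.3% of members' windows and 19.8% of all windows, CACCTG in 16.5% and 17.5%, and AACCNGTT in 0 of 85 and 1.49%. These are matches of letters only, and nothing about binding follows from their presence or absence.

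Values below are normalized read counts, the deposited value minus 1, for replicates 1, 2 and 3 of a group in that order or as the mean ± SD of 3 libraries. Fold changes are differences in log2(normalized count + 1) with their standard error, which understate the change of genes with few reads. They come from 1 limma model over all 12 libraries, with Benjamini-Hochberg adjusted p-values over 13310 genes and calls at an adjusted p under 0.05.

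With FT671 guidance genes moved in both directions. Against DMSO_NEUR, 21 of 63 were higher, 30 lower and 12 not called. At least 2-fold, 11 of 63 were higher and 18 of 63 lower, against 2177 and 1916 of all 13310 genes (16.4% and 14.4%). The background in this comparison was 79.8% of all genes called, so the 81.0% of guidance genes called is close to it. Among all genes, 40.2% were higher and 39.7% lower. The median log2 fold change was -0.12 for the guidance genes and 0.01 for all genes, and the median size of the change, regardless of sign, was 0.97 and 0.60.

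Neural differentiation also moved guidance genes both ways. In NEUR against UNDIF 27 of 63 were higher, 32 lower and 4 not called. At least 2-fold, 17 of 63 were higher and 21 of 63 lower, against 2056 and 2200 of all 13310 genes (15.4% and 16.5%). The background was 82.0% of all genes called, with 40.4% higher and 41.6% lower, and 93.7% of the guidance genes were called. Their median log2 fold change was -0.41 against -0.03 over all genes, and the median size of the change was 1.32 against 0.62. Without NEUR replicate 3, 27 were higher and 32 lower. With library totals as the scale, the counts were 24 and 34, and this is a scaling that moves the median of all genes by -0.14 in this comparison and -0.12 in FT671_NEUR against DMSO_NEUR. With only the 52 members that had a mean of at least 100, 26 were higher and 23 lower, so the excess of falls did not hold there. RNA came from whole cultures, so fewer cells of a type and less RNA per cell cannot be told apart.

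**Figure D1:**
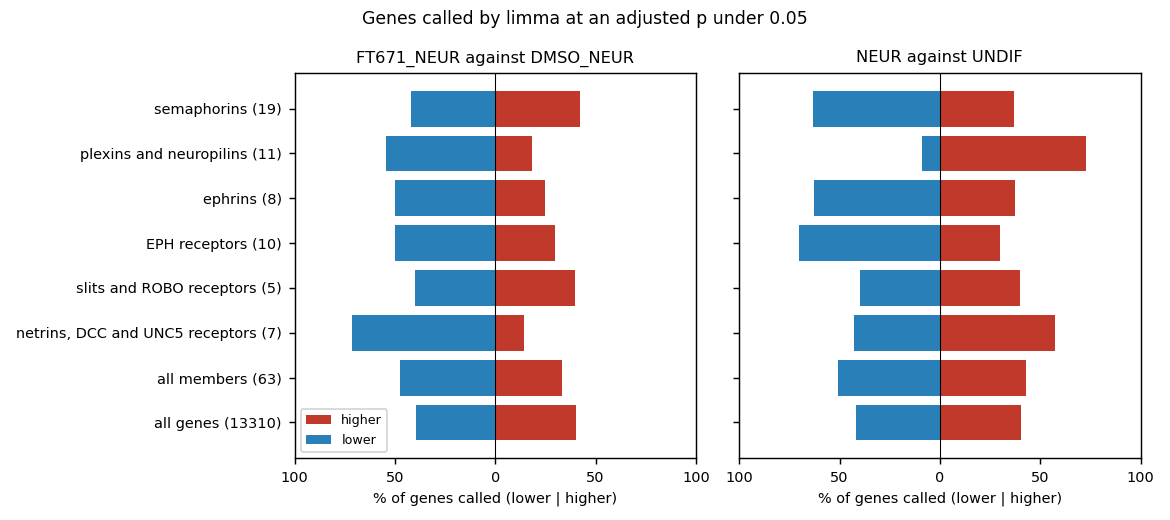
Share of each gene family called by limma at an adjusted p under 0.05, higher to the right and lower to the left, with family sizes in parentheses and all 13310 genes at the bottom. Of 11 plexins and neuropilins 8 were higher in NEUR than in UNDIF and 6 were lower in FT671_NEUR than in DMSO_NEUR, and of 7 netrin, DCC and UNC5 genes 5 were lower with FT671.

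Marker genes of other cell types moved in the same comparisons. All 12 of the 12 epithelial and surface ectoderm markers in the table were higher with FT671, and their summed normalized counts were 188069 to 210153 in FT671_NEUR and 39182 to 40929 in DMSO_NEUR. Of 10 neural progenitor markers 9 were lower, with sums of 10319 to 10855 in FT671_NEUR and 50213 to 51419.6 in DMSO_NEUR, and FABP7 and POU3F2 were at 0 reads with FT671. Of 8 early neuron markers 6 were lower and 2 higher, with sums of 2637 to 3059.9 in FT671_NEUR and 4395 to 4719.6 in DMSO_NEUR. Most nervous system markers thus fell while the epithelial markers rose. Of 7 endothelial markers 6 were lower, with sums of 819 to 942 in FT671_NEUR and 4341 to 4854 in DMSO_NEUR. Of 8 mesenchyme markers 3 were higher and 5 lower, with sums of 126627 to 131098 in FT671_NEUR and 56922 to 71542 in DMSO_NEUR. COL1A2 (86503 in FT671_NEUR and 38827 in DMSO_NEUR) and COL1A1 (25885 and 11263) carried this sum, against the direction of most markers listed. Each sum follows its most abundant genes and is not the level of a cell type. Of 7 neural crest markers 3 were higher and 4 lower, with sums of 2669 to 2736 in FT671_NEUR and 5862 to 6188 in DMSO_NEUR. ETS1 alone had 908 in FT671_NEUR and 5160 in DMSO_NEUR. Of 11 pluripotency markers 4 were higher and 4 lower, with sums of 7443 to 8661 in FT671_NEUR and 15969 to 17873 in DMSO_NEUR. Among the higher ones, POU5F1 and TDGF1 had means of only 4.23 and 3.17 in FT671_NEUR, while ZFP42 and L1TD1 had 848 and 2498. In NEUR against UNDIF 7 of 10 neural progenitor markers were higher and 3 lower, with sums of 47094 to 48660 in NEUR and 23163 to 27328 in UNDIF. Of 11 pluripotency markers 10 were lower, with sums of 15111 to 17112 in NEUR and 74079.6 to 74785 in UNDIF. Of 12 epithelial markers 7 were higher and 5 lower, with sums of 49157 to 60912 in NEUR and 15874 to 15993 in UNDIF. Some markers of tissues other than the nervous system were thus also higher in NEUR. Of 8 mesenchyme markers 6 were higher and 1 lower, with sums of 68395 to 73913 in NEUR and 15181 to 17260.4 in UNDIF. Of 8 early neuron markers 6 were higher and 2 lower, with overlapping sums of 3784 to 4384 in NEUR and 4068 to 4258 in UNDIF. Of 7 endothelial markers 4 were higher and 3 lower, with sums of 4187 to 4327 in NEUR and 5301 to 6339 in UNDIF. KDR alone had 557 in NEUR and 4226 in UNDIF. Of 7 neural crest markers 2 were higher and 4 lower, with sums of 4550.5 to 5668 in NEUR and 1632 to 1976 in UNDIF. There ETS1 alone had 4403 in NEUR and 633 in UNDIF. The part of these markers in the results on guidance genes was not tested.

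**Figure D2:**
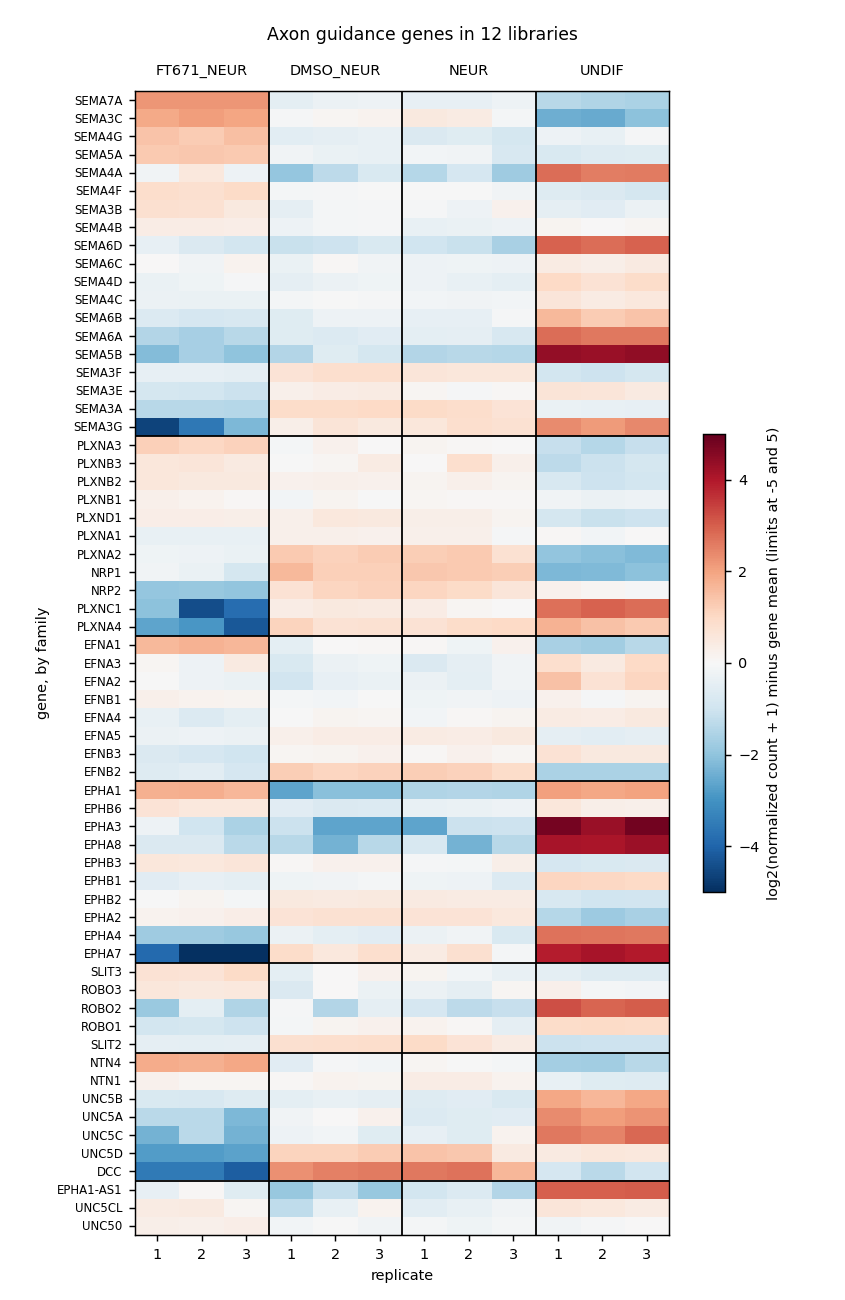
The 63 genes in the 12 libraries, as log2(normalized count + 1) minus the mean of the gene, with red above and blue below it, in columns by group and rows by family sorted by the change with FT671. DMSO_NEUR and NEUR columns look alike, while DCC, UNC5D, EPHA7, PLXNA4, PLXNC1 and SEMA3G are lowest in the FT671_NEUR columns.

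Secreted class 3 semaphorins split. SEMA3A (ENSG00000075213), the founding repellent ligand of the class, had 529, 525 and 511 normalized counts in FT671_NEUR, against 2647, 2622 and 2746 in DMSO_NEUR (log2 fold change -2.35 ± 0.07, limma adjusted p = 1.62e-14). It had 2679, 2521 and 2230.4 in NEUR, against 1093, 1075 and 1041 in UNDIF (log2 fold change 1.21 ± 0.07, limma adjusted p = 7.90e-11). All FT671 libraries thus lay below all libraries of the other groups, UNDIF included. SEMA3F, a ligand that prefers neuropilin-2, had 1334, 1307 and 1284 in FT671_NEUR, against 2825, 3192 and 3126 in DMSO_NEUR (log2 fold change -1.22 ± 0.07, limma adjusted p = 3.29e-11). It had 2669.5, 2625 and 2623 in NEUR, against 942, 853 and 949 in UNDIF (log2 fold change 1.53 ± 0.07, limma adjusted p = 1.73e-12). Here the FT671 libraries stayed above the undifferentiated ones.

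SEMA3C, a semaphorin that can attract as well as repel, was higher in NEUR than in UNDIF and higher again with FT671. It had 2106, 2415 and 2183 in FT671_NEUR, against 543, 606 and 641 in DMSO_NEUR (log2 fold change 1.90 ± 0.14, limma adjusted p = 1.51e-09). It had 791, 744 and 531 in NEUR, against 101.4, 96.9 and 133 in UNDIF (log2 fold change 2.62 ± 0.14, limma adjusted p = 2.33e-11). SEMA3G had 0, 1.05 and 4.25 in FT671_NEUR, against 29.2, 37.8 and 33.2 in DMSO_NEUR (log2 fold change -3.95 ± 0.40, limma adjusted p = 1.18e-07, or -4.58 without FT671_NEUR replicate 3). That is 5 reads over the FT671 libraries. SEMA3G also fell to 39.7 ± 4.05 in NEUR, against 121 ± 11.7 in UNDIF (adjusted p = 0.0019 by limma, or 0.0994 with a pseudocount of 0.1). SEMA3E fell with FT671 (-1.31 ± 0.12) and in NEUR against UNDIF (-0.55 ± 0.12). SEMA3B, a gene described as induced by p53, was higher with FT671, at 449.5 ± 55.2 in FT671_NEUR and 242 ± 31.9 in DMSO_NEUR (log2 fold change 0.89 ± 0.14, limma adjusted p = 1.73e-05). Its rise in NEUR against UNDIF (0.41, limma adjusted p = 0.0118) was not called without NEUR replicate 3 (0.28, adjusted p = 0.0637), without UNDIF replicate 2 (0.35, adjusted p = 0.0527) or with library totals (0.27, adjusted p = 0.0850). In the order of the RefSeq annotation SEMA3E and SEMA3A are adjacent, with SEMA3C 3 genes further on, and SEMA3A and SEMA3E were lower with FT671 while SEMA3C was higher.

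Several membrane-bound semaphorins fell with differentiation. SEMA5B had 14.7, 15.7 and 14.9 in NEUR, against 897, 852 and 926 in UNDIF (log2 fold change -5.79 ± 0.22, limma adjusted p = 2.90e-13), and was lower again with FT671 (-0.97 ± 0.22). SEMA6D had 41.1, 38.2 and 25.9 in NEUR, against 639, 579 and 642 in UNDIF (log2 fold change -4.13 ± 0.19, limma adjusted p = 2.65e-12). SEMA6A had 990.4 ± 134 in NEUR, against 9423 ± 559.9 in UNDIF (log2 fold change -3.26 ± 0.09, limma adjusted p = 1.08e-14). These 3 had no overlap between the NEUR and UNDIF libraries, as was so for 80.2% of all genes. SEMA4A, a class 4 semaphorin with roles in immune cells, fell with differentiation and was higher with FT671 at a level still below UNDIF. It had 41.3, 67.3 and 39.3 in FT671_NEUR, against 11.7, 18.4 and 27.4 in DMSO_NEUR (log2 fold change 1.35 ± 0.29, limma adjusted p = 4.67e-04). It had 16.6, 25.4 and 12.9 in NEUR, against 331, 279 and 289 in UNDIF (log2 fold change -4.01 ± 0.29, limma adjusted p = 1.49e-09). SEMA6B, SEMA4D, SEMA4C, SEMA6C and SEMA4B fell in NEUR against UNDIF, with log2 fold changes of -1.73, -1.25, -0.66, -0.62 and -0.41.

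Several membrane-bound semaphorins rose with FT671. SEMA7A, which is anchored to the membrane by a lipid and signals through integrins and plexin C1, had 4979, 4906 and 4987 in FT671_NEUR, against 757, 877 and 902 in DMSO_NEUR (log2 fold change 2.56 ± 0.08, limma adjusted p = 3.58e-14). It had 801, 815 and 904 in NEUR, against 413, 374 and 357 in UNDIF (log2 fold change 1.14 ± 0.08, limma adjusted p = 1.16e-09). The FT671 libraries were close to each other and far above the rest. SEMA4G had 689, 619 and 732 in FT671_NEUR, against 176, 184 and 193 in DMSO_NEUR (log2 fold change 1.87 ± 0.11, limma adjusted p = 1.23e-10), after a smaller fall in NEUR against UNDIF (-0.50 ± 0.11). SEMA5A had 2739, 2773 and 2748 in FT671_NEUR, against 983, 865 and 851 in DMSO_NEUR (log2 fold change 1.62 ± 0.13, limma adjusted p = 4.15e-09). SEMA5A in NEUR against UNDIF depended on single libraries: it was 0.30 (limma adjusted p = 0.0381), 0.51 without NEUR replicate 3 (adjusted p = 6.09e-06), 0.18 without NEUR replicate 1 (adjusted p = 0.197) and 0.21 without NEUR replicate 2 (adjusted p = 0.173). Leaving out UNDIF replicate 1, 2 or 3 also ended that call, at adjusted p of 0.124, 0.0586 and 0.0527, as did a fit of the 2 groups alone (0.0906) and library totals (0.234). SEMA4F rose in both comparisons (0.94 ± 0.08 with FT671 and 0.68 ± 0.08 in NEUR against UNDIF), and SEMA4B was higher with FT671 (0.48 ± 0.07). With FT671, SEMA6A, SEMA6B and SEMA4C fell (-0.90, -0.40 and -0.26), and SEMA4D, SEMA6C and SEMA6D were not called (log2 fold changes 0.11, 0.16 and 0.28). SEMA6C passed without DMSO_NEUR replicate 2 (0.27, adjusted p = 0.0330). In all, 8 of 19 semaphorins were higher with FT671 and 8 lower, where 40.2% and 39.7% of all genes were. In NEUR against UNDIF 7 were higher and 12 lower, where 40.4% and 41.6% of all genes were.

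The neuropilins were both high in neural cultures and low with FT671. NRP1 (ENSG00000099250), the receptor that binds SEMA3A and also a co-receptor of VEGF, had 233, 209 and 144 in FT671_NEUR, against 824, 608 and 603 in DMSO_NEUR (log2 fold change -1.80 ± 0.16, limma adjusted p = 1.48e-08). It had 681, 657 and 617 in NEUR, against 55.5, 57.4 and 64.1 in UNDIF (log2 fold change 3.44 ± 0.16, limma adjusted p = 3.09e-12). FT671 libraries lay between the neural and the undifferentiated libraries. NRP2 (ENSG00000118257), the neuropilin that binds SEMA3F, had 312, 319.9 and 306 in FT671_NEUR, against 2006, 2545 and 2696 in DMSO_NEUR (log2 fold change -2.94 ± 0.12, limma adjusted p = 6.14e-13). It had 2501, 2325 and 1808 in NEUR, against 1389, 1277 and 1160.2 in UNDIF (log2 fold change 0.78 ± 0.12, limma adjusted p = 1.15e-05). For NRP2 the FT671 libraries lay below the undifferentiated ones too.

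Plexins, the signalling receptors of semaphorins, mostly rose with differentiation. PLXNA2 had 2444, 2564 and 1755 in NEUR, against 258, 239.9 and 223 in UNDIF (log2 fold change 3.21 ± 0.11, limma adjusted p = 1.15e-13). With the inhibitor it had 895, 863 and 819.6 in FT671_NEUR, against 2578, 2263 and 2505 in DMSO_NEUR (log2 fold change -1.51 ± 0.11, limma adjusted p = 2.09e-09). PLXNA4, the plexin A most tied to sensory and sympathetic axons in mice, had 5.30, 4.21 and 1.06 in FT671_NEUR, against 83.6, 63.0 and 65.5 in DMSO_NEUR (log2 fold change -4.13 ± 0.31, limma adjusted p = 2.57e-09). The FT671_NEUR and DMSO_NEUR libraries did not overlap for these 2 receptors, as was so for 84.7% of all genes. PLXNA4 in NEUR against UNDIF (-0.63 ± 0.31) was not called by limma (adjusted p = 0.0728) but was by edgeR (0.00232) and DESeq2 (0.00278), with library totals (0.0302), a pseudocount of 10 (0.00318) or the 2 groups alone (0.00441), and without FT671_NEUR replicate 1 (0.0451) or 3 (0.00654). PLXNC1, a receptor of SEMA7A, had 9.54, 1.05 and 2.12 in FT671_NEUR, against 56.4, 60.1 and 58.6 in DMSO_NEUR (log2 fold change -3.87 ± 0.39, limma adjusted p = 1.00e-07, or -4.55 without FT671_NEUR replicate 1). It also fell to 48.8 ± 6.90 in NEUR, against 315 ± 23.4 in UNDIF (log2 fold change -2.67 ± 0.39, limma adjusted p = 8.55e-06), so this receptor was lowest where its ligand SEMA7A was highest.

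PLXNA3 moved the other way from PLXNA1 and PLXNA2 with the inhibitor. It had 2280.4, 2066 and 2233 in FT671_NEUR, against 921, 1144 and 1009 in DMSO_NEUR (log2 fold change 1.10 ± 0.09, limma adjusted p = 5.31e-09), and rose in NEUR against UNDIF as well (1.32 ± 0.09). PLXNA1 was lower with FT671 (-0.60 ± 0.08). In NEUR against UNDIF PLXNA1 was not called (0.16, limma adjusted p = 0.0778), but was without NEUR replicate 3 (0.26, adjusted p = 4.07e-04). The B plexins all rose in NEUR against UNDIF: PLXNB1 by 0.32, PLXNB2 by 1.11 and PLXNB3 by 1.46 on the log2 scale. With FT671 only PLXNB2 among them was called (0.29 ± 0.07). PLXNB1 (0.16, adjusted p = 0.0585) passed without DMSO_NEUR replicate 2 (0.0124), FT671_NEUR replicate 3 (0.0369) or NEUR replicate 3 (0.0374), and PLXNB3 did not pass (0.37, adjusted p = 0.132). PLXND1, the plexin of vessels, rose in NEUR against UNDIF (1.25 ± 0.08) and was not called with FT671 (-0.12, adjusted p = 0.203), except without DMSO_NEUR replicate 1 (-0.21, adjusted p = 0.0239) or with library totals (-0.24, adjusted p = 0.0114). Of 11 plexins and neuropilins 2 were higher and 6 lower with FT671, where 40.2% and 39.7% of all genes were. In NEUR against UNDIF 8 were higher and 1 lower, where 40.4% and 41.6% of all genes were. PLXNC1 was the 1 that fell, and with the settings named above for PLXNA4 2 fell.

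**Figure D3:**
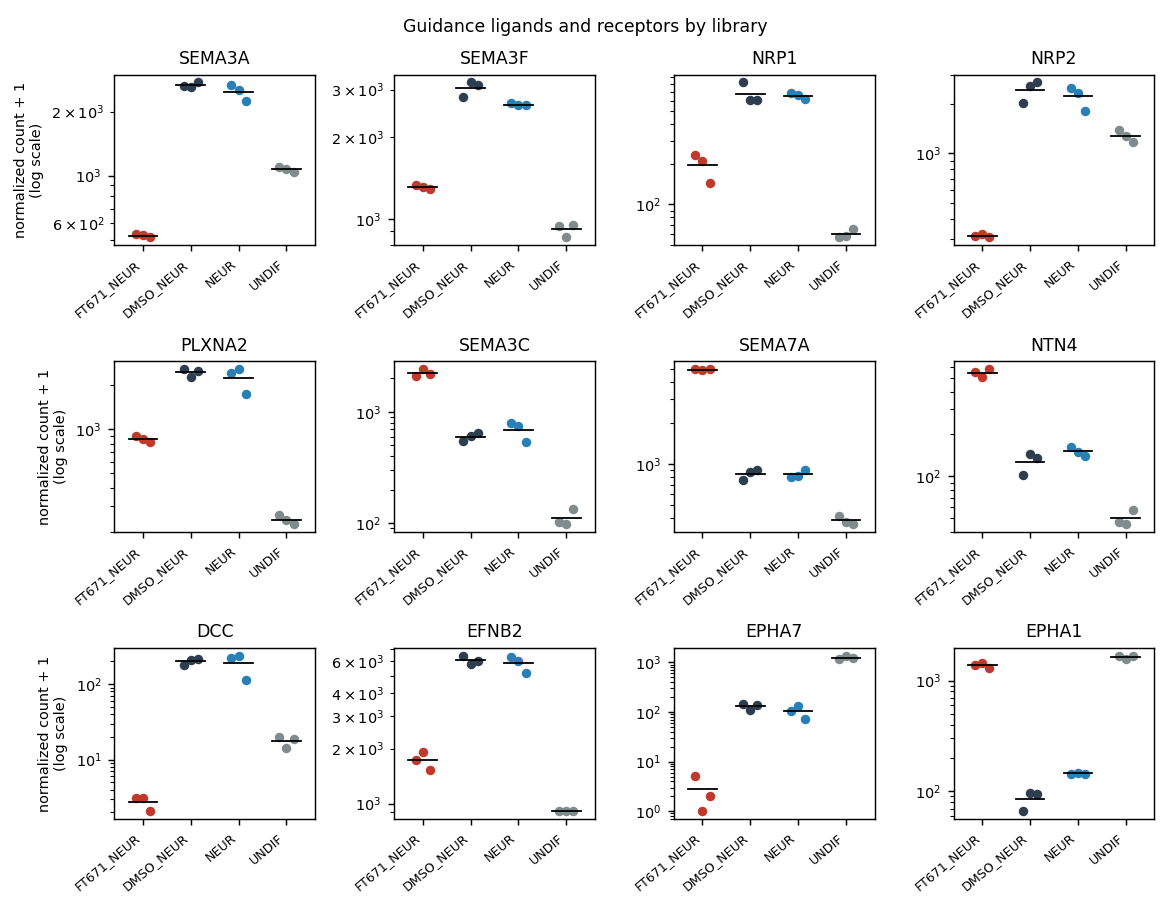
Normalized count plus 1 on a log axis for 12 genes in each library, with a point per library and a line at the group mean. SEMA3A, NRP2, DCC and EPHA7 sit lowest in the FT671_NEUR libraries, SEMA3C, SEMA7A and NTN4 sit highest there, and EPHA1 is high in FT671_NEUR and UNDIF and low in DMSO_NEUR and NEUR.

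Among the B ephrins, which span the membrane, EFNB2 carried the largest change. EFNB2 (ENSG00000125266), the ephrin of arteries and of neural progenitors, had 1730.5, 1904 and 1532 in FT671_NEUR, against 6397, 5772 and 6024 in DMSO_NEUR (log2 fold change -1.82 ± 0.09, limma adjusted p = 4.45e-12). It had 6350.1, 6007 and 5156 in NEUR, against 909.9, 908 and 913 in UNDIF (log2 fold change 2.67 ± 0.09, limma adjusted p = 3.34e-14). The FT671 libraries lay between the neural and the undifferentiated ones, with no overlap. Of all genes, 84.7% had no overlap in FT671_NEUR against DMSO_NEUR and 90.2% in FT671_NEUR against UNDIF. EFNB3 fell with FT671 (-0.999 ± 0.09) and in NEUR against UNDIF (-0.45 ± 0.09). EFNB1 was slightly higher with FT671 (0.28 ± 0.08), a call lost with library totals (0.15, adjusted p = 0.0681), and slightly lower in NEUR against UNDIF (-0.31 ± 0.08).

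The A ephrins, which are anchored by a lipid, include neighbours that moved differently. EFNA1 (ENSG00000169242), a ligand of EPHA1 and EPHA2, had 933, 1012 and 947 in FT671_NEUR, against 214, 306 and 312 in DMSO_NEUR (log2 fold change 1.81 ± 0.15, limma adjusted p = 5.73e-09). It had 311, 258 and 352 in NEUR, against 96.6, 88.4 and 114 in UNDIF (log2 fold change 1.61 ± 0.15, limma adjusted p = 2.72e-08). EFNA4, EFNA3 and EFNA1 are adjacent in the RefSeq annotation. EFNA4 was lower with FT671 (-0.57 ± 0.11), and EFNA3 was not called (0.52 ± 0.24, limma adjusted p = 0.057). EFNA3 passed with a pseudocount of 10 (0.0429), with a block for replicate number (0.0385), without DMSO_NEUR replicate 3 (0.0452) and without FT671_NEUR replicate 2 (0.0217). Both EFNA3 (-1.21 ± 0.24) and EFNA4 (-0.41 ± 0.11) fell in NEUR against UNDIF. EFNA5, which patterns visual and cortical maps in mice, rose in NEUR against UNDIF (0.89 ± 0.07) and fell with FT671 (-0.61 ± 0.07). EFNA2 fell in NEUR against UNDIF (-1.43 ± 0.18) and was not called with FT671 (0.37 ± 0.18, adjusted p = 0.0727, or 0.0400 without DMSO_NEUR replicate 3). Of 8 ephrins 2 were higher and 4 lower with FT671, where 40.2% and 39.7% of all genes were. In NEUR against UNDIF 3 were higher and 5 lower, where 40.4% and 41.6% of all genes were. Without DMSO_NEUR replicate 3, 4 ephrins were higher with FT671, and with library totals 1 was.

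EPHA1 was low after differentiation and high again with FT671. EPHA1 (ENSG00000146904), an EPH receptor of epithelia, had 1376, 1449 and 1298 in FT671_NEUR, against 65.2, 95.9 and 93.8 in DMSO_NEUR (log2 fold change 4.02 ± 0.12, limma adjusted p = 1.44e-14). It had 142, 147 and 143 in NEUR, against 1663, 1558 and 1653 in UNDIF (log2 fold change -3.49 ± 0.12, limma adjusted p = 7.91e-14). Its level with FT671 was 1375 ± 75.2 and in UNDIF 1625 ± 57.9 (-0.24 ± 0.12, limma adjusted p = 0.066). That difference was called by edgeR (adjusted p = 0.00439) and DESeq2 (0.00402), with TMM scaling (0.0346), library totals (6.86e-04) or the 2 groups alone (0.00246), and without DMSO_NEUR replicate 1 (0.00822). EPHA1 was also the only member called between DMSO_NEUR and NEUR, as given below. The antisense RNA EPHA1-AS1 is annotated next to EPHA1 in RefSeq, and whether counting used strand is not given in the sources used here, so reads of the 2 genes cannot be told apart where they overlap.

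EPHA7, EPHA4, EPHA3 and EPHA8 were highest in undifferentiated cells. EPHA7, which shapes the neural tube and cortical progenitors in mice, had 102, 134 and 71.7 in NEUR, against 1188, 1349 and 1227 in UNDIF (log2 fold change -3.64 ± 0.39, limma adjusted p = 2.28e-07). With the inhibitor it had 4.24, 0 and 1.06 in FT671_NEUR, against 147, 110.4 and 139.7 in DMSO_NEUR (log2 fold change -5.90 ± 0.39, limma adjusted p = 4.42e-10, or -6.53 without FT671_NEUR replicate 1). That is 5 reads over the FT671 libraries against 408 with DMSO. EPHA4, a receptor of both ephrin classes, had 271 ± 57.6 in NEUR, against 2268 ± 37.9 in UNDIF (log2 fold change -3.08 ± 0.13, limma adjusted p = 1.07e-12), and fell again with FT671 (-1.36 ± 0.13). EPHA3 had 0, 1.96 and 1.99 in NEUR, against 169, 121 and 174 in UNDIF (log2 fold change -6.22 ± 0.55, limma adjusted p = 1.67e-08). EPHA8 had 3 reads over the NEUR libraries and 295 in UNDIF, a ratio of 94.2 with an exact 95% counting interval of 31.9 to 459. EPHA3 and EPHA8 may be in the deposited table only through UNDIF, so nothing is drawn from these 2 falls. Neither was called with FT671, where EPHA3 had 7 reads against 2 with DMSO (ratio 3.81, interval 0.725 to 37.6) and EPHA8 5 against 2 (ratio 2.72, interval 0.445 to 28.6). The limma value of EPHA3 (adjusted p = 0.0589) passed with a pseudocount of 0.1 (0.0388), without NEUR replicate 1 (0.0337) or 3 (0.0493), DMSO_NEUR replicate 1 (0.0120) or FT671_NEUR replicate 3 (0.0333).

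EPHA2 and the B receptors EPHB2 and EPHB3 rose with differentiation. EPHA2, a receptor of epithelia and early embryos that has been described as induced by p53, had 5900.3, 5901 and 5404 in NEUR, against 1366, 1048 and 1219 in UNDIF (log2 fold change 2.25 ± 0.08, limma adjusted p = 1.82e-13). It was modestly lower with FT671, at 4408 ± 227 in FT671_NEUR and 6178 ± 160.3 in DMSO_NEUR (log2 fold change -0.49 ± 0.08, limma adjusted p = 4.20e-05). EPHB2 rose by 1.35 and EPHB3 by 0.84 on the log2 scale in NEUR against UNDIF, and with FT671 EPHB2 was lower (-0.47 ± 0.07) while EPHB3 was higher (0.41 ± 0.10). EPHB6, a receptor whose kinase is inactive, was higher with FT671, at 501 ± 32.3 in FT671_NEUR and 211 ± 10.1 in DMSO_NEUR (log2 fold change 1.24 ± 0.10, limma adjusted p = 5.11e-09), and lower in NEUR than in UNDIF (-0.69 ± 0.10). EPHB1 fell in NEUR against UNDIF (-1.40 ± 0.13). Its smaller fall with FT671 (-0.32, adjusted p = 0.0293) was not called without DMSO_NEUR replicate 2 (0.0606) or 3 (0.0829), or without FT671_NEUR replicate 1 (0.0970) or 3 (0.0517). Of 10 EPH receptors 3 were higher and 5 lower with FT671, where 40.2% and 39.7% of all genes were. In NEUR against UNDIF 3 were higher and 7 lower, where 40.4% and 41.6% of all genes were.

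The slits changed in opposite directions with FT671. SLIT2, the best known slit ligand of the midline, had 348, 338 and 344 in FT671_NEUR, against 814, 848 and 855 in DMSO_NEUR (log2 fold change -1.29 ± 0.10, limma adjusted p = 6.34e-09). It had 906, 758 and 628 in NEUR, against 221, 226 and 226 in UNDIF (log2 fold change 1.75 ± 0.10, limma adjusted p = 1.17e-10). SLIT3 was higher with FT671, at 351 ± 38.8 in FT671_NEUR and 193 ± 45.6 in DMSO_NEUR (log2 fold change 0.88 ± 0.17, limma adjusted p = 1.25e-04). Its rise in NEUR against UNDIF (0.47, adjusted p = 0.0159) was not called without NEUR replicate 1 (0.33, adjusted p = 0.0880) or with library totals (0.33, adjusted p = 0.0717).

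Of the ROBO receptors, ROBO1 fell in both comparisons, ROBO2 in NEUR against UNDIF, and ROBO3 rose with FT671. ROBO2 had 13.7, 9.78 and 10.96 in NEUR, against 245, 197 and 218 in UNDIF (log2 fold change -4.15 ± 0.36, limma adjusted p = 1.21e-08). Adjacent to it in the RefSeq annotation, ROBO1 had 2473 ± 542 in NEUR and 4856 ± 47.7 in UNDIF (-0.998 ± 0.12), and 1342 ± 74.0 in FT671_NEUR and 2712 ± 292 in DMSO_NEUR (-1.01 ± 0.12). ROBO3, which modulates slit sensitivity at the midline, had 364 ± 12.4 in FT671_NEUR and 204 ± 53.0 in DMSO_NEUR (log2 fold change 0.86 ± 0.17, limma adjusted p = 2.19e-04). ROBO3 was not called in NEUR against UNDIF (-0.21, adjusted p = 0.263), nor ROBO2 with FT671 (-0.62, adjusted p = 0.118). ROBO2 passed without DMSO_NEUR replicate 2 (-1.02, adjusted p = 0.0125) or FT671_NEUR replicate 2 (-1.01, adjusted p = 0.0139). Of the 5 slit and ROBO genes 2 were higher and 2 lower in each of the comparisons. Without NEUR replicate 1, or with library totals, 1 was higher in NEUR against UNDIF. Of all genes, 40.2% were higher and 39.7% lower with FT671, and 40.4% and 41.6% in NEUR against UNDIF.

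DCC was among the members that fell most with FT671, together with EPHA7, and which of them fell more depends on 1 library and on the pseudocount: DCC was -6.31 and EPHA7 -6.53 without FT671_NEUR replicate 1, and -6.80 and -7.37 with a pseudocount of 0.1. DCC (ENSG00000187323), the netrin receptor that attracts axons, had 2.12, 2.10 and 1.06 in FT671_NEUR, against 177, 207 and 216 in DMSO_NEUR (log2 fold change -6.21 ± 0.27, limma adjusted p = 2.06e-12). It had 222, 235 and 114 in NEUR, against 19.1, 13.2 and 17.7 in UNDIF (log2 fold change 3.38 ± 0.27, limma adjusted p = 5.75e-09). DCC was thus high in both neural groups and held 5 reads over the FT671 libraries, fewer than the 53 in UNDIF. NEUR replicate 3 differed by -1.001 from the mean of the other NEUR libraries on the log2 scale, the largest deviation among the members, and no alternative ended the call. UNC5D (ENSG00000156687), a repulsive netrin receptor of the developing cortex, had 66.8, 66.3 and 72.2 in FT671_NEUR, against 1008, 1019 and 1128 in DMSO_NEUR (log2 fold change -3.92 ± 0.18, limma adjusted p = 2.69e-12). In NEUR it had 1247, 1205 and 632, against 634, 683 and 681 in UNDIF, where the groups overlap (0.56, adjusted p = 0.00806). That value was 0.88 without NEUR replicate 3 (adjusted p = 6.38e-08) and not called without NEUR replicate 1 (0.39, adjusted p = 0.0520) or 2 (0.41, adjusted p = 0.0529).

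The other UNC5 receptors were highest in stem cells. UNC5B, a netrin receptor of vessels that has been described as induced by p53, had 344 ± 27.6 in NEUR, against 1953 ± 191 in UNDIF (log2 fold change -2.50 ± 0.09, limma adjusted p = 1.97e-13), and was a little lower with FT671 (-0.30 ± 0.09). UNC5A fell in NEUR against UNDIF (-2.86 ± 0.21) and with FT671 (-1.67 ± 0.21), and so did UNC5C (-2.94 ± 0.36 and -1.68 ± 0.36). UNC5C had few reads after differentiation, 24 over the NEUR libraries, 23 with DMSO and 5 with FT671. It may be in the deposited table only through UNDIF. In all, 4 of 4 UNC5 receptors were lower with FT671, where 39.7% of all genes were, and 4 genes are too few to describe a family.

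With FT671 the netrin ligands did not follow their receptors. NTN4, a netrin of basement membranes, had 551, 510.3 and 582 in FT671_NEUR, against 100.2, 143 and 135 in DMSO_NEUR (log2 fold change 2.12 ± 0.15, limma adjusted p = 6.76e-10). It had 160.4, 149 and 139 in NEUR, against 45.9, 44.2 and 56.7 in UNDIF (log2 fold change 1.60 ± 0.15, limma adjusted p = 2.80e-08). NTN1, the ligand of DCC, had 806 ± 38.8 in FT671_NEUR and 802 ± 32.6 in DMSO_NEUR, with overlapping libraries (log2 fold change 0.01 ± 0.09, limma adjusted p = 0.94). It rose in NEUR against UNDIF (log2 fold change 0.84 ± 0.09, limma adjusted p = 1.25e-07). Of the 7 netrin, DCC and UNC5 genes 1 was higher and 5 lower with FT671, where 40.2% and 39.7% of all genes were. In NEUR against UNDIF 4 were higher and 3 lower, where 40.4% and 41.6% of all genes were.

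The 3 rows that encode no guidance molecule had smaller or sparser values. EPHA1-AS1 had 7.42, 10.5 and 6.37 in FT671_NEUR, against 1.95, 3.87 and 1.95 in DMSO_NEUR (log2 fold change 1.36 ± 0.34, limma adjusted p = 0.00149). It had 4.89, 5.87 and 2.99 in NEUR, against 86.1, 87.5 and 89.2 in UNDIF (log2 fold change -4.02 ± 0.34, limma adjusted p = 8.70e-09), the same directions as EPHA1. EPHA1-AS1 may be in the deposited table only through UNDIF. UNC50, a Golgi membrane protein, was higher with FT671 (0.41 ± 0.08) and not called in NEUR against UNDIF (-0.07, adjusted p = 0.389, or -0.21 and 0.0252 with library totals). UNC5CL, a regulator of NF-kB signalling, was higher with FT671 (0.81, adjusted p = 0.0127), a call lost without DMSO_NEUR replicate 1 (0.42, adjusted p = 0.0896), and lower in NEUR than in UNDIF (-0.87 ± 0.27). Without these rows, 18 of 60 members were higher and 30 lower with FT671, and 27 were higher and 30 lower in NEUR against UNDIF.

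The comparisons FT671_NEUR against DMSO_NEUR and NEUR against UNDIF share no library, so their calls can be set side by side. Members that were higher in NEUR and lower with FT671, at least 2-fold in each, were SEMA3A, SEMA3F, NRP1, PLXNA2, EFNB2, SLIT2 and DCC. These are 7 of 63 members (11.1%), against 477 of all 13310 genes (3.58%). EPHA1, SEMA4A and EPHA1-AS1 went the other way, 3 members (4.76%) against 767 genes (5.76%). A further 5 members (7.94%, against 3.28% of all genes) were higher at least 2-fold in both comparisons, and 6 (9.52%, against 3.12%) were lower in both. With no fold minimum, 12 members (19.0%, against 13.5% of all genes) were higher in NEUR and lower with FT671, and 8 (12.7%, against 14.8%) went the other way. The largest class was lower in both comparisons, with 16 members (25.4%, against 16.5%), and 11 (17.5%, against 17.2%) were higher in both. The lists were chosen with results known, and these shares describe the members without a test. Across the 63 members the log2 fold changes of both comparisons correlated with Pearson r of -0.07, and across all genes with -0.15, where genes of 1 library share its depth and are not replicates.

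**Figure D4:**
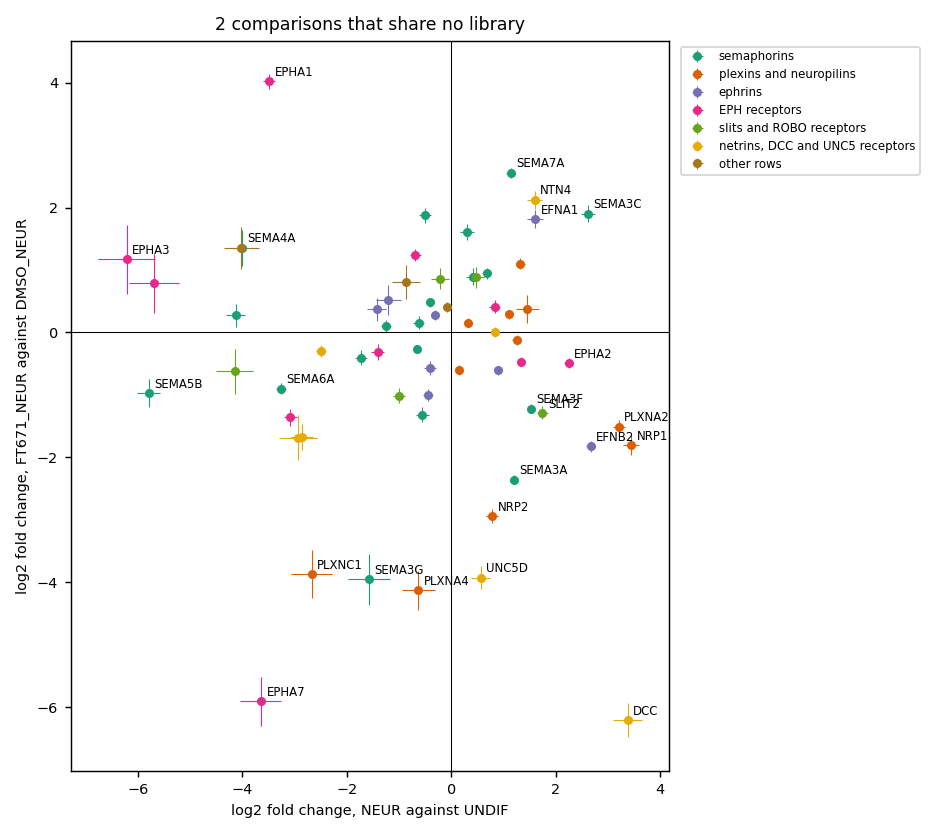
Log2 fold change with FT671 (vertical) against log2 fold change with differentiation (horizontal) for the 63 members, coloured by family, with bars of 1 standard error. DCC, NRP1, EFNB2 and PLXNA2 lie at the lower right, EPHA1 at the upper left, and SEMA3C, SEMA7A, NTN4 and EFNA1 at the upper right.

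In FT671_NEUR against UNDIF, 27 members were higher and 32 lower, with 88.0% of all genes called, 44.0% higher and 43.9% lower, so the share of members called, 93.7%, is close to the background. All 12 epithelial markers in the table were higher in this comparison, with sums of 188069 to 210153 in FT671_NEUR and 15874 to 15993 in UNDIF, and their part in it was not tested. At least 2-fold, 17 of 63 members were higher and 27 of 63 lower, against 3170 and 3057 of all 13310 genes (23.8% and 23.0%). With no fold minimum, 26 of the 52 members with a mean of at least 100 were higher and 23 lower. These values share libraries with both comparisons above and are no independent support. DCC (-2.69 ± 0.27), NRP2 (-2.02 ± 0.12), UNC5D (-3.27 ± 0.18) and SEMA3A (-1.03 ± 0.07) were lower with FT671 than in UNDIF. NRP1 (1.69 ± 0.16), PLXNA2 (1.83 ± 0.11), EFNB2 (0.91 ± 0.09) and SEMA3F (0.52 ± 0.07) were higher. The largest of the rises were SEMA3C (4.34 ± 0.14), SEMA7A (3.70 ± 0.08), NTN4 (3.46 ± 0.15) and EFNA1 (3.27 ± 0.15), and the largest fall was EPHA7 (-9.15 ± 0.39, or -9.77 without FT671_NEUR replicate 1). EFNA3 fell (-0.66, adjusted p = 0.0168), though not without UNDIF replicate 3 (0.0741) or FT671_NEUR replicate 2 (0.0915). EPHB6 was not called (0.21, adjusted p = 0.056) except without UNDIF replicate 1 (0.00891) or NEUR replicate 3 (0.0449).

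Between DMSO_NEUR and NEUR 1 member was called. EPHA1 had 65.2, 95.9 and 93.8 in DMSO_NEUR, against 142, 147 and 143 in NEUR (log2 fold change -0.78 ± 0.12, limma adjusted p = 0.00693). The groups did not overlap, and the call was lost when only these groups were fitted (adjusted p = 0.492). The direction is opposite to that of EPHA1 in FT671_NEUR against DMSO_NEUR. The background was 0.398% of all genes called, 0.00751% higher and 0.391% lower, and at least 2-fold 0.00751% and 0.0451%. No member was higher by limma, edgeR or DESeq2. At an unadjusted limma p under 0.05, 7 were higher and 2 lower. The share of all genes at that cutoff was not counted, so nothing is drawn from these 2 counts. Beside EPHA1, 4 of 12 epithelial markers were lower in DMSO_NEUR than in NEUR, with sums of 39182 to 40929 in DMSO_NEUR and 49157 to 60912 in NEUR, and their part in this result was not tested.

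Genes that act with or downstream of these receptors were read from a list of 66, of which 56 are in the table. With FT671 16 of the 56 were higher and 29 lower, against 40.2% and 39.7% of all genes, with a median log2 fold change of -0.26 against 0.01 over all genes. The largest falls with FT671 included DPYSL5, a collapsin response mediator that carries semaphorin signals, which had 22.2 ± 2.75 in FT671_NEUR and 1291 ± 65.7 in DMSO_NEUR (log2 fold change -5.80 ± 0.10, limma adjusted p = 3.00e-17). FLRT2, an adhesion molecule that binds UNC5D, had 29.6 ± 0.925 in FT671_NEUR and 910.1 ± 114 in DMSO_NEUR (log2 fold change -4.89 ± 0.12, limma adjusted p = 1.16e-15). VAV3, an exchange factor used by EPH receptors, had 89.6 ± 4.78 in FT671_NEUR and 1854 ± 121 in DMSO_NEUR (log2 fold change -4.36 ± 0.10, limma adjusted p = 5.86e-16), and FLRT3 fell too (-3.25 ± 0.12). FLRT2 and its binding partner UNC5D were thus both low with FT671. The largest rises were CNTN4 (2.54 ± 0.22), NTNG1 (2.10 ± 0.23), NGEF (1.35 ± 0.15), an exchange factor bound by EPHA receptors, and LIMK2 (1.35 ± 0.07), a kinase that acts on cofilin.

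In NEUR against UNDIF 29 of the 56 were higher and 15 lower, against 40.4% and 41.6% of all genes, with a median log2 fold change of 0.27 against -0.03. L1CAM, an adhesion molecule of axons and a partner of NRP1, had 4424 ± 249.9 in NEUR and 207 ± 39.0 in UNDIF (log2 fold change 4.43 ± 0.10, limma adjusted p = 6.21e-16). VAV3 (3.35 ± 0.10), MICAL2 (3.02 ± 0.14), which oxidises actin, and RND3 (2.79 ± 0.08) were the next largest rises. The largest falls were CNTN2 (-4.85 ± 0.38), DRAXIN (-3.96 ± 0.15), a repulsive ligand that binds DCC, RGMA (-2.65 ± 0.09), the repulsive ligand of NEO1, and RND2 (-2.08 ± 0.08). L1CAM was higher again with FT671 (0.40 ± 0.10), while VAV3 was lower.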

How the data were processed

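Polyadenylated RNA of 12 libraries was sequenced, and per the submitters' processing notes reads were handled with STAR, HTSeq, DESeq2 and R 4.3.1 on hg19. The deposited signal values are gene counts, each scaled by the size factor of its library and raised by 1, as the values show: with 1 taken off, 100% are whole reads to within 0.001. The authors also deposited an FDR (an adjusted p-value) for undifferentiated against neural cells, used here only as a description. In the authors' deposited table it is under 0.05 for 60 of 63 members. The share of all genes under it was not counted, and limma called 82.0% of all genes in NEUR against UNDIF. Depth was 15906471 to 17271155 reads per library, and counting intervals are exact at 95% and cover counting error only. In the table, 32 other value columns were not used.

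Because the values are normalized, limma 3.58.1 in R 4.3.3 was fitted with a trend to log2(normalized count + 1). The model had 1 mean per group over 12 libraries and no further filter. The deposited table holds no gene with a mean under 12.2 over the 12 libraries, so genes with few reads in every group are absent. EPHA3, EPHA8, UNC5C and EPHA1-AS1 had means below that in every group but UNDIF. Their falls in NEUR against UNDIF may thus follow from how they entered the table. P-values were Benjamini-Hochberg adjusted over 13310 genes. The procedure was tested on simulated data. Alternatives were other scalings, edgeR 4.0.16 and DESeq2 1.42.0 on the recovered reads, pseudocounts of 0.1 and 10, a mean of at least 100, only the groups compared, a replicate block and each library left out, and, added after seeing the data, the set without UNC50, UNC5CL and EPHA1-AS1. Up to 8 called members with the largest changes in each direction were named, with 4 in the list of other guidance genes, and others to complete each family. Members, lists and motifs were chosen with earlier results of these data known.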

Additional observations from a re-analysis of the deposited data

How the results depend on the processing

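Of 252 values (63 members in 4 comparisons), 224 kept their side of the threshold and their direction in every alternative that fitted the member. The alternative with a mean of at least 100 fitted 52 of the 63 members, and the rest were not judged by it. Of those 52, 26 were higher and 23 lower in NEUR against UNDIF, and likewise 26 and 23 in FT671_NEUR against UNDIF. The excess of lower over higher members in these comparisons thus did not hold without the less abundant members. In FT671_NEUR against DMSO_NEUR 18 of the 52 were higher and 27 lower, so the excess of lower members held there. Of the called members, 54 of 59 in NEUR against UNDIF and 48 of 51 in FT671_NEUR against DMSO_NEUR were called wherever they were fitted. With each library left out in turn, 24 to 27 members were higher and 32 to 33 lower in NEUR against UNDIF, 21 to 23 and 29 to 31 in FT671_NEUR against DMSO_NEUR, 0 and 1 in DMSO_NEUR against NEUR, and 27 to 28 and 31 to 33 in FT671_NEUR against UNDIF. Fitted with only those groups, 0 members were lower in DMSO_NEUR against NEUR. Library totals, which move the median of all genes by -0.27 in FT671_NEUR against UNDIF, turned EFNB1 (-0.17, adjusted p = 0.0424 by limma), EFNA5 (-0.075, adjusted p = 0.320) and SEMA4B (-0.016, adjusted p = 0.838) in that comparison, by their construction. Same-numbered libraries correlated at -0.172 to 0.0693 in their deviations and differently numbered ones at -0.203 to 0.197, so no pairing by replicate number was seen. These are deviations from means of 3 libraries, which cannot exclude a shared culture or batch. With the replicate block 27 members were higher and 32 lower in NEUR against UNDIF, 22 and 30 in FT671_NEUR against DMSO_NEUR, 0 and 1 in DMSO_NEUR against NEUR, and 27 and 32 in FT671_NEUR against UNDIF. The block changed the call of 1 member, EFNA3 in FT671_NEUR against DMSO_NEUR (0.52, adjusted p = 0.0385 by limma), so that 3 ephrins were higher there. Depth limits EPHA3, EPHA8, DCC, EPHA7, SEMA3G and UNC5C, with 7 reads or fewer over the FT671_NEUR libraries.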
